A study of Nothobranchius furzeri with 20 samples.

Results

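A set of 60 genes, of the 18153 with a mean level of at least 1 CPM (a gene's count as a share of its library's total, on a scale common to all libraries), was chosen by measured levels that were high in exercised brains at 9 weeks and in one set of brains at 27 weeks. The table of the whole series holds 26739 genes. The brain samples came from males of Nothobranchius furzeri, the turquoise killifish, an annual species with a short life, of the strain MZM-04/10p, and gene expression was measured by RNA-seq. There were 10 libraries from fish of 27 weeks, all labelled as exercised in a swim tunnel, 5 from exercised fish of 9 weeks and 5 from unexercised fish of 9 weeks. Unexercised fish of 27 weeks were not analysed here, and no label says whether separate fish gave separate libraries or how long the fish swam.

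For the choice, the levels were put on the scale log2(CPM + 0.5). At 9 weeks the gap was the lowest of the 5 exercised libraries minus the highest of the 5 unexercised ones. At 27 weeks it was the lowest of the 5 libraries with titles JM132 to JM136 (replicates 1 to 5, called the earlier-numbered libraries here) minus the highest of the 4 with titles JM139, JM140, JM143 and JM144 (replicates 6, 7, 9 and 10, called the later-numbered libraries). Replicate 8, with the title JM141, was left out of the ranking. The score of a gene was the smaller of its 2 gaps, and the 60 genes with the highest scores were taken. The labels give all 10 of the 27-week libraries the same age and the same exercise, so the sets at 27 weeks are not labelled groups, and no test was made between them. Since the values themselves chose the genes, the levels at 9 weeks and within the 27-week libraries are given as a description.

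A swim tunnel makes fish swim against a current, and in killifish the ageing brain is known for gliosis and a decline of adult neurogenesis. RNA of a whole brain is a sum over neurons, glia, vessels and blood, so fewer cells of a type and less RNA per cell cannot be told apart. The deposited files pair their gene identifiers with no names, and 0 of the 26739 identifiers matched the RefSeq gene table of assembly NfurGRZ-RIMD1. No function, pathway or sequence is therefore given for any of the 60 genes. The brain origin was taken from the labels, because cell type markers could not be looked up. Genes are called by their rank of score, and the leading pair also by identifier.

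Libraries held between 15048627 and 34843199 counts, and the lowest count of any of the 60 genes in any library was 7. Replicate 8 of the 27-week group stood apart, with 10.4% of its counts in its 10 most counted genes, against 3.05% to 3.72% in the other libraries. Its scaling factor (TMM, which corrects for a library's composition) was 0.736, against 0.984 to 1.05 elsewhere. For the main edgeR fits that include this library, counts of calls at an adjusted p below 0.05 are given below with and without it. Counts by unadjusted p, DESeq2 or another setting of edgeR are given only with it.

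Genes that kept both sets apart in the upward direction were rare in the table, and the gaps of the 60 were small. Among the 18153 genes, 377 (2.08%) had every exercised 9-week library above every unexercised one, and 170 (0.936%) had every exercised library below. At 27 weeks 1624 genes (8.95%) had all earlier-numbered above all later-numbered libraries, and 1151 (6.34%) had them all below. Both gaps were above 0 in 112 genes (0.617%), of which the 60 are the upper part. Another 41 genes (0.226%) were below at both ages, 5 (0.0275%) were above at 9 weeks and below at 27 weeks, and 0 were below at 9 weeks and above at 27 weeks. Every count here is on raw totals.

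**Figure D1:**
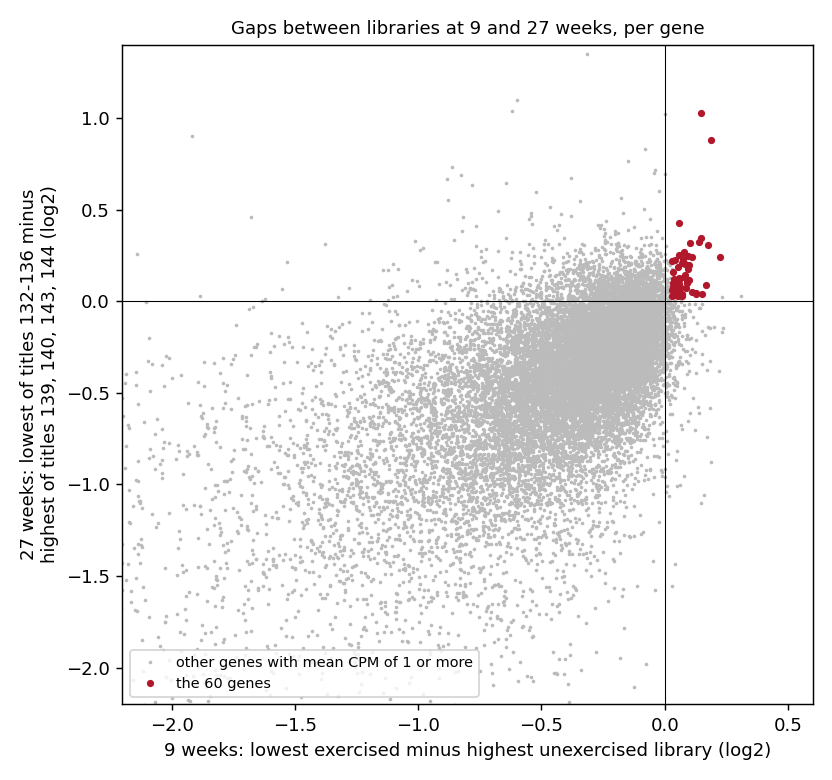
Each dot is 1 of 18153 genes; the horizontal axis is the gap at 9 weeks and the vertical axis the gap at 27 weeks, both in log2(CPM + 0.5), and 520 other genes lie outside the axes shown. The 60 genes (red) lie where both gaps are above 0, with scores between 0.029 and 0.23.

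Scores ran from 0.23 for the first gene to 0.029 for the last, with a median of 0.057 on the log2 scale. The last 3 genes inside the limit scored 0.0299, 0.0296 and 0.0291, and the first 3 outside scored 0.0283, 0.0282 and 0.0272. There was thus no break at the limit of 60. The smaller gap was the one at 9 weeks in 45 genes and the one at 27 weeks in 15. Counting error alone (Poisson, from the counts of the 2 libraries that set the score) had a median SD of 0.063, and 27 of 60 scores exceeded their own counting SD while 8 exceeded 1.96 times that SD. These SDs cover counting error only. The score is the value that chose the genes, and it is a lowest minus a highest library. The counts of scores above an SD are therefore a description and no test, and none were made over all genes.

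The first gene by score, Nfu_g_1_018186, was higher in exercised than in unexercised 9-week brains by a modest margin. It stood at 21.7, 17.1, 23.2, 20.3 and 19.7 CPM in exercised 9-week libraries, against 12.5, 14.4, 12.8, 13.9 and 14.6 CPM in unexercised ones. At 27 weeks it stood at 19.5, 19.9, 20.8, 22.1 and 21.6 CPM in the earlier-numbered libraries, against 16.4, 14.3, 16.3 and 15.1 CPM in the later-numbered ones and 13.0 CPM in replicate 8. The earlier-numbered 27-week libraries overlapped the exercised 9-week ones, and the lowest later-numbered library lay within the range of the unexercised 9-week ones. For the exercise difference at 9 weeks the edgeR log2 fold change was 0.56 (SE 0.09, adjusted p = 0.0584), which did not pass the threshold of 0.05. Over 14 other settings the adjusted p lay between 1.76e-05 with DESeq2 and 0.305 with all 20 libraries in the edgeR fit, and it passed in 2 of them, DESeq2 and the fit without exercised 9-week replicate 2.

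The second gene, Nfu_g_1_008710, differed far more at 27 weeks than at 9 weeks. It had 15.4, 21.6, 14.95, 15.8 and 17.8 CPM in exercised 9-week libraries, against 12.5, 10.8, 12.4, 10.8 and 13.1 CPM in unexercised ones. In the earlier-numbered 27-week libraries it had 46.3, 35.8, 45.3, 30.1 and 38.1 CPM, against 12.7, 13.9, 13.8 and 16.2 CPM in the later-numbered ones and 9.38 CPM in replicate 8. Every earlier-numbered library was therefore above every 9-week library, with a mean 2.25-fold that of exercised 9-week fish on the log2(CPM + 0.5) scale. The later-numbered libraries lay among the 9-week values. At 9 weeks the edgeR log2 fold change was 0.50 (SE 0.11, adjusted p = 0.156), and over 14 other settings the adjusted p lay between 0.00853 with DESeq2, where alone it passed, and 0.973 with all 20 libraries in the edgeR fit.

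Besides the second gene, those of rank 3 and rank 5 differed more than 2-fold between the 27-week sets, and no other of the 60 did. Rank 3 was the least counted, at 1.46, 1.41, 1.99, 1.31 and 1.31 CPM in exercised 9-week libraries, against 0.719, 0.637, 1.104, 0.974 and 0.304 CPM in unexercised ones. In the 27-week libraries it had 1.73, 2.59, 3.05, 2.96 and 1.29 CPM in the earlier-numbered and 0.946, 0.766, 0.589 and 0.445 CPM in the later-numbered ones, with 1.05 CPM in replicate 8, above all 4 of these. With 7 to 68 counts per library, its score of 0.18 was below its counting SD of 0.39.

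Rank 5 was the gene with the widest gap at 27 weeks, at 1.03 on the log2 scale. It had 64.8, 59.6, 86.5, 47.7 and 71.2 CPM in the earlier-numbered 27-week libraries, against 21.0, 23.2, 19.6 and 19.8 CPM in the later-numbered ones and 10.6 CPM in replicate 8. In exercised 9-week libraries it had 49.1, 45.7, 54.8, 65.6 and 70.05 CPM, against 28.9, 30.7, 33.9, 41.3 and 39.9 CPM in unexercised ones. The later-numbered 27-week libraries were thus all below the unexercised 9-week ones, while the earlier-numbered ones overlapped the exercised 9-week ones.

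**Figure D2:**
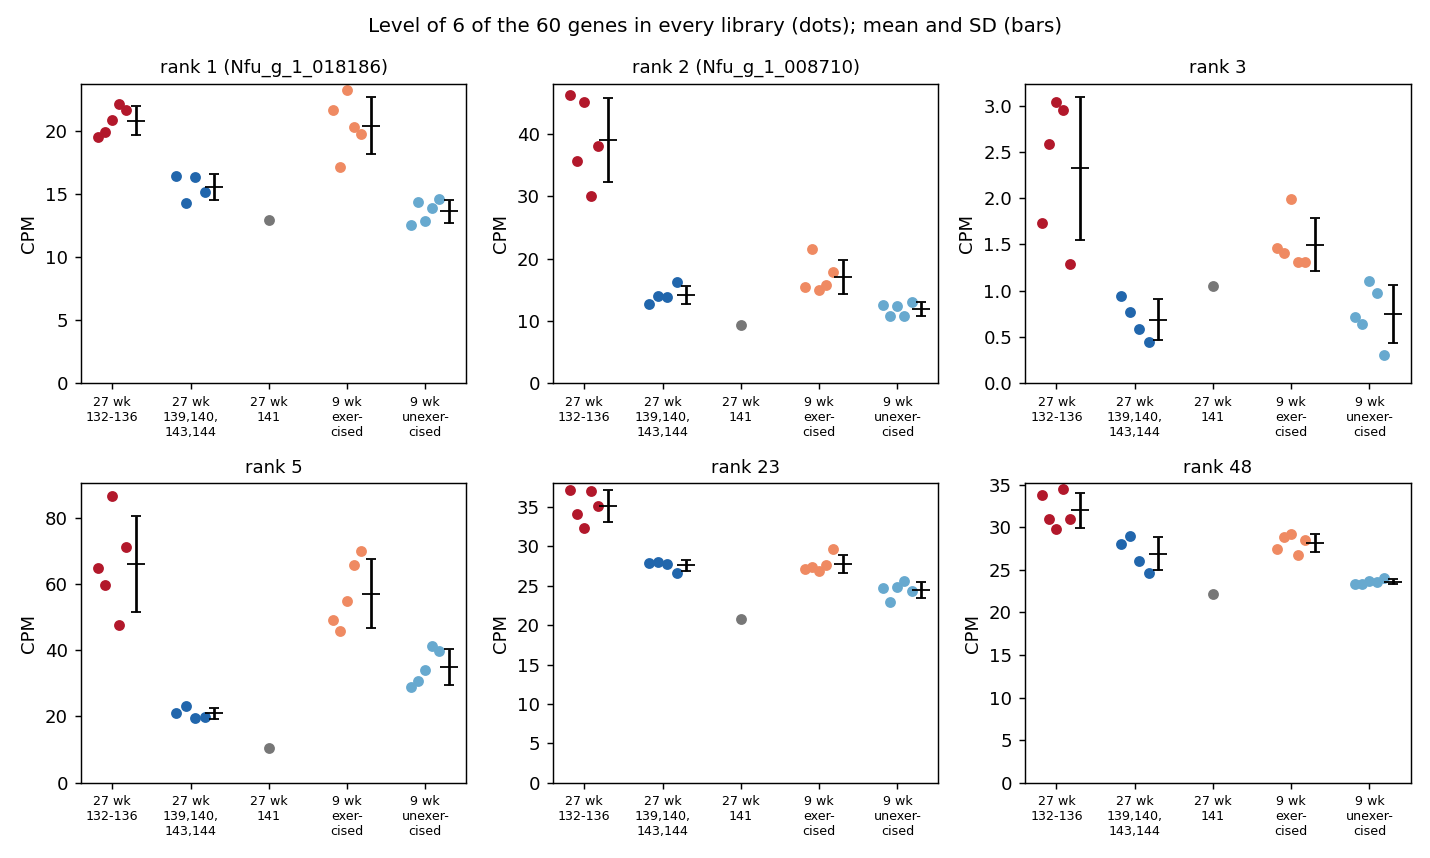
Level in CPM (vertical axis, from 0) of the genes of rank 1, 2, 3, 5, 23 and 48 in every library (dots), with the mean and SD of each set (bars), for the 27-week libraries by title number and the 9-week groups. Rank 2 reaches 46.3 CPM in an earlier-numbered 27-week library, while rank 5 is lower in the later-numbered 27-week libraries (19.6 to 23.2 CPM) than in any other library but replicate 8.

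At 9 weeks the 60 genes were higher in exercised brains by mostly small amounts. The mean difference of exercised minus unexercised libraries had a median of 0.22 on the log2(CPM + 0.5) scale, a fold of 1.16, and ranged from 0.081 to 0.71, where the median of all 18153 genes was 0.015. Only 3 genes exceeded 0.5. Together the 60 took 0.407% ± 0.0046 (SD, n = 5) of the counts of exercised 9-week libraries, against 0.355% ± 0.0034 (SD, n = 5) in unexercised ones.

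None of the 60 passed the test for exercise, and they are therefore not called raised by it. With edgeR's quasi-likelihood test and Benjamini-Hochberg adjustment over 19123 genes, 0 of 60 passed in either direction, with adjusted p between 0.0584 and 0.485, where 0.0209% of all genes were called higher and 0.0784% lower. Before adjustment 59 of 60 had an edgeR p below 0.05 and a positive fold change, against 5.78% of all genes, and 0 a negative one, against 6.33% of all genes, but the choice of genes fixes this and nothing is read from it. DESeq2 called 33 of the 60 higher and 0 lower, where 0.677% and 0.865% of the 22883 genes given to it were called. The choice of genes bears on this count too, and nothing is read from it. Without exercised 9-week replicate 2 edgeR called 1 of the 60 higher, where 0.0156% of all genes were. Median edgeR log2 fold change was 0.20 over the 60 and -0.0021 over all genes.

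At 27 weeks the same genes parted the libraries more widely. The earlier-numbered minus later-numbered difference had a median of 0.30 on the log2 scale, a fold of 1.23, ranging from 0.13 to 1.61, where all genes had a median of 0.022. It was larger than the exercise difference at 9 weeks in 50 genes and smaller in 10. No such count was made over all genes. Of all genes, 8.95% and 6.34% had the 27-week sets apart, above and below, against 2.08% and 0.936% at 9 weeks. These shares set 5 against 4 libraries at 27 weeks and 5 against 5 at 9 weeks, and fewer libraries are easier to part. They also count full separation, not the size of mean differences. Whether the larger difference at 27 weeks is particular to the 60 was not tested. The share of counts held by the 60 was 0.440% ± 0.021 (SD, n = 5) in the earlier-numbered and 0.357% ± 0.0080 (n = 4) in the later-numbered libraries. In 28 of the 60 genes all 10 libraries of the high sets lay above all 9 of the low sets, a pattern that 49 of the 18153 genes showed (0.27%) and that the choice favours.

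**Figure D3:**
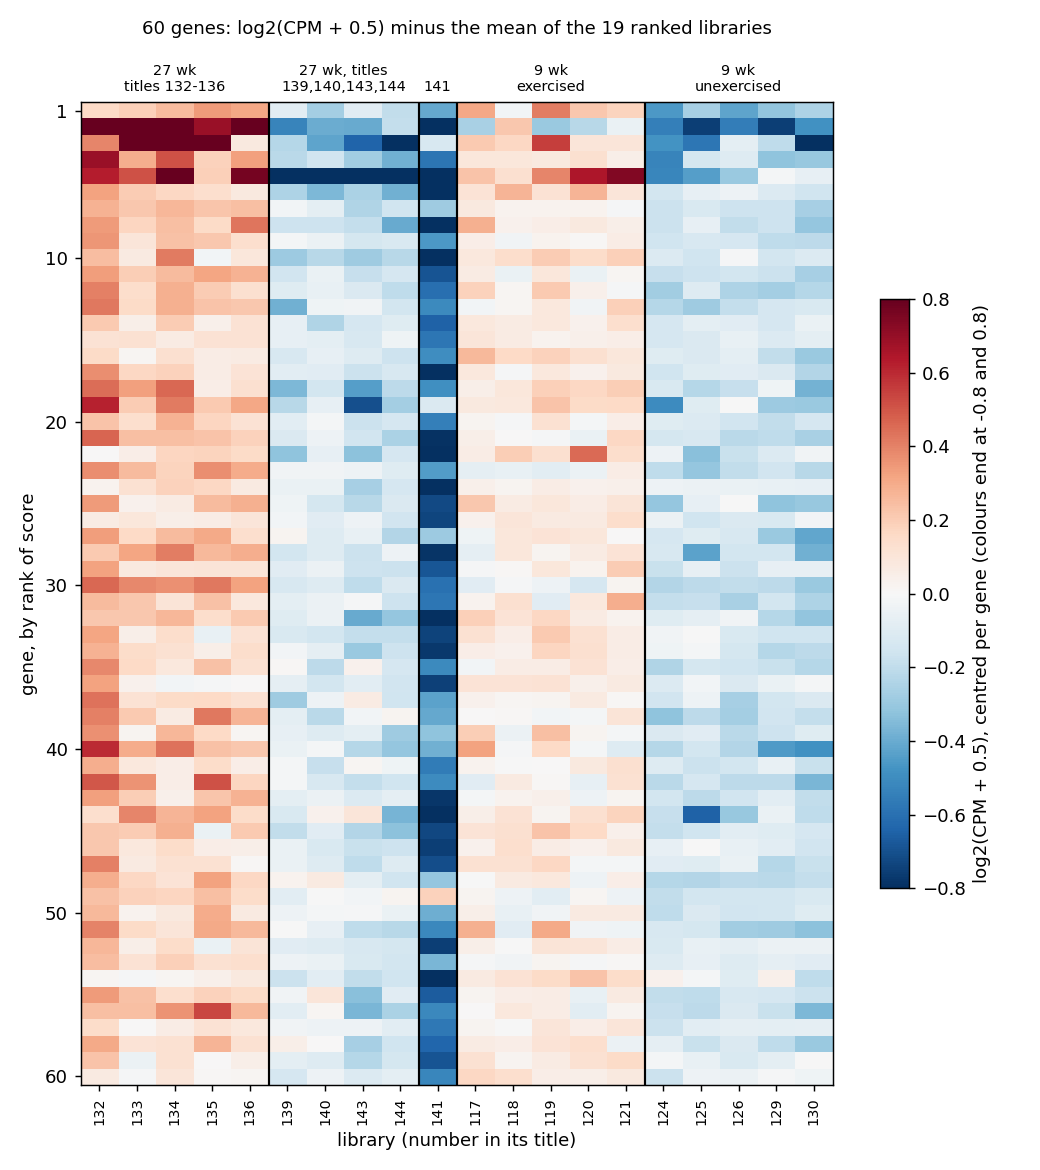
The 60 genes in order of score (rows) across the 20 libraries (columns, by title number), coloured by log2(CPM + 0.5) minus the gene's mean over the 19 ranked libraries. The earlier-numbered 27-week and exercised 9-week libraries are mostly red, paler at 9 weeks, the unexercised 9-week and later-numbered 27-week libraries are mostly blue, and replicate 8 of the 27-week group is the darkest blue column.

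Rank 30 was an example of a gene that was narrowly apart at 9 weeks and widely at 27 weeks. It had 118.5, 112, 111, 115 and 108 CPM in the earlier-numbered 27-week libraries, against 78.6, 80.1, 74.7 and 79.5 CPM in the later-numbered ones and 56.9 CPM in replicate 8. In exercised 9-week libraries it had 80.9, 85.7, 83.7, 78.3 and 87.5 CPM, against 73.2, 74.4, 75.2, 74.3 and 70.11 CPM in unexercised ones. Its gap was 0.43 at 27 weeks and 0.058 at 9 weeks.

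Rank 16 showed the opposite order of sizes. It had 22.6, 21.1, 21.5, 20.6 and 20.1 CPM in exercised 9-week libraries, against 17.5, 17.3, 17.8, 16.4 and 15.2 CPM in unexercised ones. At 27 weeks the earlier-numbered libraries had 21.0, 19.04, 20.6, 19.6 and 19.7 CPM, against 17.2, 17.9, 17.5 and 16.7 CPM in the later-numbered ones and 13.2 CPM in replicate 8. Its differences were 0.32 at 9 weeks and 0.20 at 27 weeks on the log2 scale.

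The most highly counted of the 60, rank 36, had a narrow margin at both ages. It stood at 483, 483, 486, 460 and 471 CPM in exercised 9-week libraries, against 415, 440, 413, 431 and 443 CPM in unexercised ones. In the earlier-numbered 27-week libraries it stood at 560, 459, 441, 446 and 448 CPM, against 426, 405, 422 and 402 CPM in the later-numbered ones and 266 CPM in replicate 8. Replicate 1 of the 27-week group was far above the other earlier-numbered libraries in this gene.

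**Figure D4:**
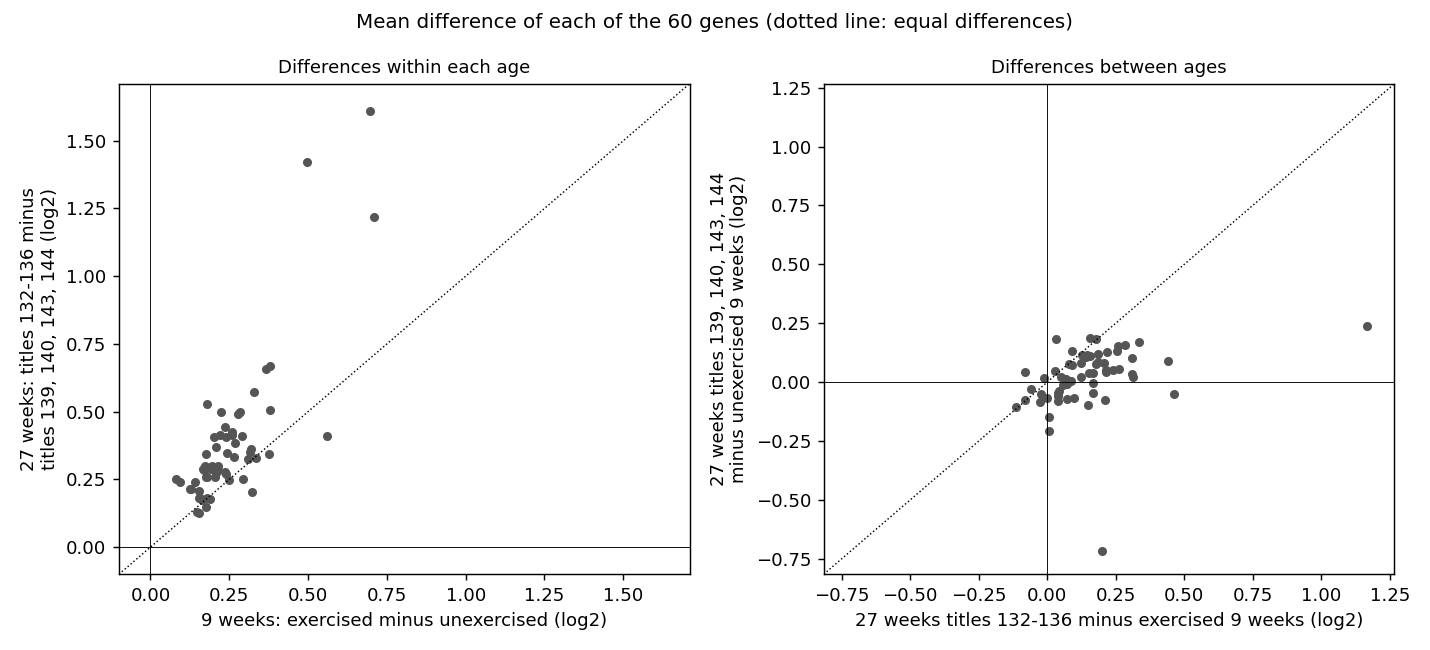
Each dot is 1 of the 60 genes and the axes are mean differences in log2(CPM + 0.5). Left, the difference between the 27-week sets against the exercise difference at 9 weeks, with 50 dots above the line of equal differences; right, the later-numbered 27-week libraries minus unexercised 9-week libraries against the earlier-numbered 27-week libraries minus exercised 9-week libraries.

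Set against 9-week fish, the earlier-numbered 27-week libraries were mostly somewhat higher than exercised 9-week libraries, and the later-numbered ones lay close to unexercised 9-week libraries. The ranking did not use these contrasts, but it chose the genes on values of these same libraries. The medians and counts are therefore a description, and positive and negative differences were not counted over all genes. Earlier-numbered 27-week minus exercised 9-week libraries gave a median of 0.14 on the log2 scale (all genes 0.026), positive in 53 genes and negative in 7. With TMM scaling it was 0.10 (all genes -0.012), positive in 46 and negative in 14. In 16 genes every earlier-numbered 27-week library lay above every exercised 9-week library, where 9.04% of all genes did so and 818 of the 1564 other genes whose earlier-numbered libraries lay above the later-numbered ones (52.3%). The share among the 60 was above that of all genes and below that of the other genes parted at 27 weeks. The ranking took genes high in the earlier-numbered and in the exercised 9-week libraries, so nothing is read from this order. In 0 genes did every one lie below, where 5.69% of all genes and 1 of the 1564 others parted at 27 weeks (0.064%) did.

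For the later-numbered 27-week minus unexercised 9-week libraries the median was 0.038 (all genes 0.025), with 38 genes positive and 22 negative. With TMM scaling it was 0.0062, with 32 positive and 28 negative. All of these libraries lay above all unexercised 9-week ones in 4 of the 60, where 6.59% of all genes did so, and below in 3, where 2.34% did. The ranking took genes low in both of these sets, so nothing is read from their closeness.

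The comparison of the 27-week fish with exercised 9-week fish, which asks about age, pools both sets as the labels do. Of the 60 genes 0 passed in either direction with edgeR over 19531 genes, where 1.16% of all genes were called higher and 0.998% lower. Before adjustment 0 of the 60 were higher and 6 lower at an edgeR p below 0.05, where 12.7% and 9.86% of all genes were. DESeq2 called 0 higher and 3 lower, where 4.10% and 3.18% of all genes were. Without replicate 8 of the 27-week group edgeR called 0 higher and 1 lower, where 2.57% and 2.13% of all genes were. The median log2 fold change was -0.043, against 0.013 over all genes. The genes had been chosen to be high in exercised 9-week and earlier-numbered 27-week libraries and low in later-numbered ones. These counts and the median are therefore no independent result about age. The gene of rank 54 had the lowest adjusted p, at 0.0833, with 36.6 ± 6.53 CPM (SD, n = 10) in 27-week and 44.1 ± 1.74 CPM (n = 5) in exercised 9-week libraries (edgeR log2 fold change -0.26, SE 0.08).

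Between the 27-week fish and unexercised 9-week fish both age and exercise differ by the labels, and here 3 of the 60 rose and 0 fell. edgeR called 2.57% of its 19591 genes higher and 1.79% lower in this comparison. At an unadjusted p below 0.05 edgeR had 28 of the 60 higher and 0 lower, where 14.6% and 10.6% of all genes were. The median log2 fold change was 0.19, against 0.012 over all genes. The genes had been chosen to be low in the unexercised libraries, so the direction is no independent result.

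The 3 genes that rose were rank 1 and, named after their values were seen, ranks 23 and 48. Nfu_g_1_018186, rank 1, had 17.9 ± 3.28 CPM (SD, n = 10) in 27-week and 13.6 ± 0.922 CPM (n = 5) in unexercised 9-week libraries (edgeR adjusted p = 0.0433, log2 fold change 0.40 with an SE of 0.10). Rank 23 had 37.1, 34.1, 32.4, 37.1 and 35.1 CPM in the earlier-numbered and 27.9, 28.0, 27.8 and 26.6 CPM in the later-numbered 27-week libraries, with 20.8 CPM in replicate 8, against 24.8, 22.9, 24.8, 25.6 and 24.4 CPM in unexercised 9-week ones. On raw totals every 27-week library apart from replicate 8 was above every unexercised one. With TMM factors computed over all 20 libraries replicate 8 was above them too, at 28.2 CPM, against 25.8 CPM in the highest unexercised library. The test computed its own TMM factors, from the 2 groups compared. For rank 23 the edgeR adjusted p was 0.0417, with a log2 fold change of 0.33 (SE 0.08).

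Rank 48 had 33.8, 30.9, 29.7, 34.5 and 30.9 CPM in the earlier-numbered and 28.0, 28.9, 26.1 and 24.6 CPM in the later-numbered 27-week libraries, with 22.1 CPM in replicate 8, against 23.4, 23.3, 23.7, 23.6 and 24.0 CPM in unexercised 9-week ones. On raw totals replicate 8 alone did not lie above the unexercised libraries. With TMM factors computed over all 20 libraries, which are not those of the test, it stood at 30.1 CPM. On that scale the lowest later-numbered library, at 23.95 CPM, lay under the highest unexercised one, at 24.3 CPM. For rank 48 the edgeR adjusted p was 0.0293, with a log2 fold change of 0.30 (SE 0.07). In exercised 9-week libraries rank 48 averaged 28.2 ± 1.05 CPM (SD, n = 5).

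The number of the 60 called moved with single libraries, and so did the share of all genes called higher. The count was 0 without any 1 of the 5 unexercised 9-week replicates, where 0.386% to 0.888% of all genes were called, and 0 without 27-week replicate 5, where 0.998% were. It was 1 without 27-week replicate 1, 2, 3 or 4, where 1.58% to 2.23% were called, 7 without replicate 8, where 4.62% were, and 6 without replicate 10, where 3.37% were. In each fit without 1 library 0 of the 60 were called lower. The log2 fold change of Nfu_g_1_018186 stayed between 0.37 and 0.43 over these fits.

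Replicate 8 of the 27-week group took no part in the ranking, and on raw totals it was low in nearly all of the 60 genes and in most of all genes. Its CPM was below all 4 later-numbered libraries in 57 genes (95%). This held for 72% of all genes and 79.2% of the 1564 others parted at 27 weeks. It was at or below the highest of them in 58, where 86.6% of all genes were. In 1 it was above all 4 and also at or above the lowest earlier-numbered library, where 13.2% of all genes met both conditions. That exception, rank 49, stood at 87.5 CPM in replicate 8, beside 90.6, 87.2, 86.4, 90.6 and 84.9 CPM in the earlier-numbered and 72.4, 76.5, 75.7 and 78.1 CPM in the later-numbered libraries. With TMM scaling, replicate 8 was below all later-numbered libraries in 25 of the 60 genes, where 35.7% of all genes were, and within their range in 17, where 31.9% were. On that scale replicate 8 was above all later-numbered libraries and at or above the lowest earlier-numbered one in 9. Both conditions were met in 31.8% of all genes. In another 9 replicate 8 lay between the sets, a place open only to genes whose sets part. It did so in 0.573% of all genes and in 95 of the 1564 others parted at 27 weeks (6.07%). That place is wider where the gap is wider, and the ranking held only the 60 to a least gap. Nothing is therefore read from these shares. The median difference of replicate 8 from the later-numbered mean was -0.51 on raw totals (all genes -0.48) and -0.047 with TMM scaling (all genes -0.031). Replicate 8 also had a length slope of -0.0872, so that longer genes stood lower in it. With the length trend taken out of each library, the median difference was -0.42 for the 60 and -0.47 for all genes. The part of length in the positions above was not tested.

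**Figure D5:**
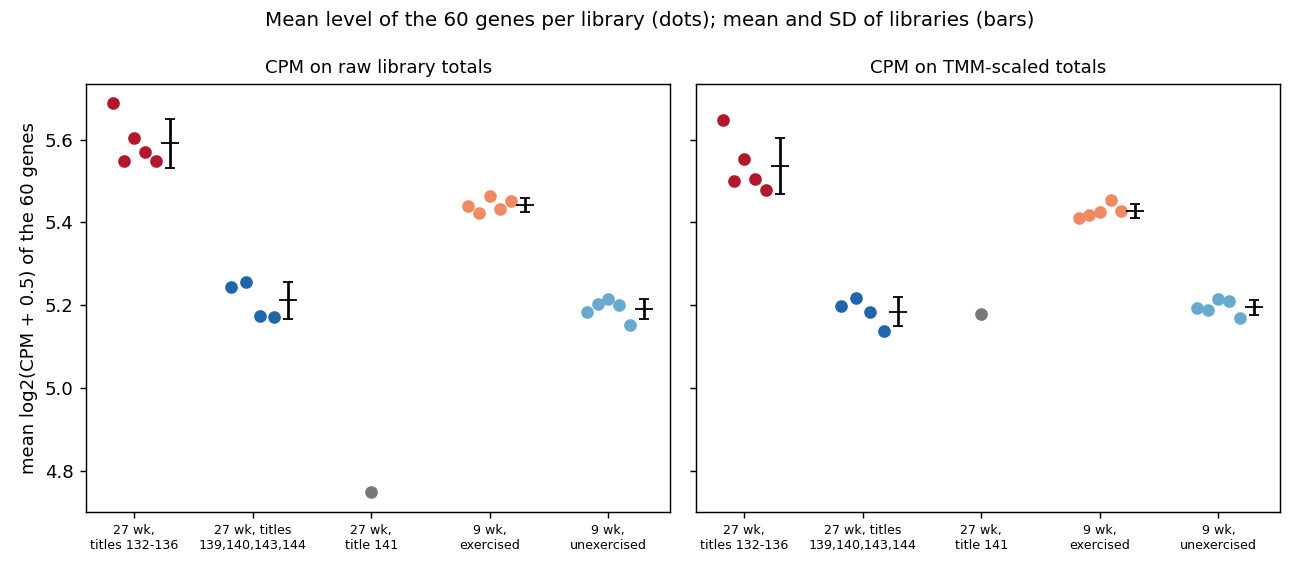
Mean log2(CPM + 0.5) of the 60 genes in each library (dots) with the mean and SD of each set (bars), on raw library totals (left) and on TMM-scaled totals (right). On raw totals replicate 8 of the 27-week group (title JM141) lies at 4.75, below every other library; with TMM scaling it lies at 5.18, among the later-numbered 27-week and unexercised 9-week libraries.

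Averaged over the 60 genes, libraries of a set lay close together, and the ranking favours genes with little spread within a set and a gap between sets. The mean log2(CPM + 0.5) was 5.59 ± 0.059 (SD, n = 5) in the earlier-numbered and 5.21 ± 0.045 (n = 4) in the later-numbered 27-week libraries, and for exercised 9-week libraries 5.44 ± 0.016 (n = 5), against 5.19 ± 0.024 (n = 5) for unexercised ones. Over all genes these SDs were 0.039 (earlier-numbered), 0.036 (later-numbered), 0.022 (exercised 9-week) and 0.025 (unexercised 9-week). The widest spread of the 60 was in the earlier-numbered set, where replicate 1 was the highest of 5 in 37 of the 60 genes and averaged 5.69, against 5.55 to 5.60 in the others. In exercised 9-week libraries the highest was replicate 3 in 20 genes and replicate 5 in 19, while the lowest was spread over all 5, at 7 to 16 genes each. Among later-numbered 27-week libraries replicates 9 and 10 were the lowest in 25 and 24 genes, and replicates 6 and 7 the highest in 23 and 24.

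The 60 genes tended towards a higher level and a greater length than the median gene, with 44 of 60 above it in level and 47 of 60 in length. The ranking favours genes with little counting error, and how far this set their level and length was not tested. Their mean level had a median of 45.6 CPM, against 20.5 CPM over all 18153 genes. Only 1 of the 60 had a mean below 5 CPM, where 20.1% of all genes did. Gene length, as implied by the deposited counts and RPKM, had a median of 4168 bp, against 2765 bp over all genes, and 18 of 60 (30%) had 6000 bp or more, where 15.8% of all genes did. Per length, the level had a median of 10.7 CPM per kb, against 8.38 over all genes.

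Depth and a length trend differed between the sets in their middle values, while single libraries overlapped. Totals were 19356620 to 24311436 counts in the earlier-numbered and 24301659 to 27411213 in the later-numbered 27-week libraries. At 9 weeks they were 15048627 to 34843199 (median 18462248) in exercised and 22260804 to 29891279 (median 26684196) in unexercised libraries. The deepest library, exercised 9-week replicate 2, averaged 5.42 over the 60 genes on raw totals, against 5.43 to 5.46 in the other exercised 9-week libraries. With TMM scaling it averaged 5.417, and replicate 1 was the lowest of that group, at 5.409. The slope of log2 CPM with each doubling of gene length, relative to the mean of all libraries, was 0.0024 ± 0.0058 (SD, n = 5) in the earlier-numbered and -0.0092 ± 0.0091 (n = 4) in the later-numbered 27-week libraries. At 9 weeks it was 0.016 ± 0.012 (n = 5) for exercised libraries, against 0.0068 ± 0.010 (n = 5) for unexercised ones. With the length trend taken out of each library, the median differences of the 60 genes were 0.21 at 9 weeks and 0.30 between the 27-week sets. The part of depth in these differences was not tested.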

How the data were processed

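The authors deposited a table of raw counts and a table of RPKM values over genes for 20 libraries, whose columns matched the samples by title. Per the labels' protocols, the TruSeq RNA Library Preparation Kit v2 was used for the libraries. Tools listed, without role or order, per the submitters' processing notes, were featureCounts 1.4.6-p4, STAR 2.4.1d and bcl2fastq 1.8.4. Build, annotation and strand setting were not given in the sources used here. Whether reads of near-identical, overlapping or antisense genes were told apart is therefore not known, and counts of such genes may be mixed. The deposited RPKM values were mostly divided by the total of another library and served only to imply gene length: over 10327 genes the implied length varied by a log2 SD of 0.42 with own totals and 5.64e-05 with totals taken in turn down the table. Between 2 replicates of a group, chi-square divided by its degrees of freedom was at least 7.86, so none were merged.

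From the counts, CPM on raw totals was computed and the ranking applied. Labelled groups were compared with edgeR 4.0.16 in R 4.3.3 (filterByExpr, TMM, quasi-likelihood test, two-sided) on the 2 groups compared, with Benjamini-Hochberg adjustment over all genes tested. The fits and the ranking were tested on simulated data. Alternatives were DESeq2 1.42.0, other filters, scaling and pseudocounts, all 20 libraries in the fit, and leaving out single libraries. Genes and lists were chosen with earlier results of these data known. Identifiers are printed for the 2 highest scores, and a rule for the largest called rise and fall among 27-week against exercised 9-week fish named none. Planned lists of markers and pathways were not analysed, since no name matched. No source says that replicates are separate fish, so p-values cover the spread among libraries, which may be technical.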

Additional observations from a re-analysis of the deposited data

Results flagged for a closer look

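In each labelled group, the highest and lowest library were checked for a gap to the nearest other library that took an unusual part of the group's range, over 30 groups of values, and 5 stood apart, where chance gives about 1 in 20. Exercised 9-week replicate 2 had 34843199 counts, with 20557058 in the next library, and 22032 genes detected, with 21607 in the next. Replicate 8 of the 27-week group had a TMM factor of 0.736, with 0.993 in the next library. It had 10.4% of its counts in its 10 most counted genes, with 3.62% in the next, and a length slope of -0.0872, with -0.0211 in the next. The mean of the 60 genes and the levels of the 2 named genes stood apart in no library of any group by this measure. These genes were chosen to part the 27-week libraries, which widens that group's range and makes such a gap harder to reach. On raw totals replicate 8 still had the lowest mean of the 60 genes, at 4.75.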

How the results depend on the processing

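Other settings covered the tool, filters, scaling, pseudocount and single libraries; removal of the length trend was chosen after seeing the data. No paired analysis was possible because replicates carry no shared numbers in the labels. Of the 60 genes, 47 stayed among the 60 highest scores with TMM scaling, 45 with the length trend removed, and 59 or 60 with another pseudocount or minimum level or with replicate 8 counted among the later-numbered libraries. Leaving out 1 library kept 36 to 59, with 36 without exercised 9-week replicate 4. With TMM scaling the median differences of the 60 genes were 0.20 at 9 weeks, 0.27 between the 27-week sets, 0.10 for earlier-numbered 27-week minus exercised 9-week and 0.0062 for later-numbered 27-week minus unexercised 9-week libraries, in place of 0.22, 0.30, 0.14 and 0.038.

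For exercise at 9 weeks DESeq2 called 33 of the 60 higher (0.677% of all genes), in place of 0 (0.0209%), and leaving out 1 library gave 0 to 1. The choice of genes bears on these counts and on those of the comparisons with 27-week fish, so nothing is read from their size. For 27 weeks against exercised 9 weeks DESeq2 (3.18% of all genes) and edgeR with all 20 libraries (3.11%) each called 3 lower, in place of 0 (0.998%), and leaving out 1 library gave 0 to 1. For 27 weeks against unexercised 9 weeks edgeR called 3 higher (2.57% of all genes), against 1 without a filter (1.57%), 0 on raw totals (0.459%), 7 with all 20 libraries (4.96%), 12 with DESeq2 (5.99%) and 0 to 7 without 1 library (0.386% to 4.62%). The cause was not tested. The call for Nfu_g_1_018186 in that comparison held in 7 of 19 alternatives, with adjusted p from 0.00684 to 0.136 and a log2 fold change from 0.37 to 0.43. Scores were small beside counting error, with 33 of the 60 at or below their own counting SD. That SD depends on a gene's level and on library depth, and the part of depth was not tested.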

Other observations

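Ranked in the opposite direction, with exercised 9-week and earlier-numbered 27-week libraries all below their counterparts, 29 genes reached the score of the last of the 60, and the first of them scored 0.90, against 0.23 for the first of the 60. On raw totals, genes low in both sets were thus fewer than those high in both, but the leading one was set further apart. On that scale the median difference of all genes was itself 0.015 at 9 weeks and 0.022 between the 27-week sets. With TMM scaling these medians were -0.0037 and -0.0049. The opposite ranking was not repeated with TMM scaling, so the part of scaling in the unequal counts was not tested. These counts are a description of the 19 ranked libraries, with no test.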
